A study of Mus musculus with 9 samples.

Results

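The respiratory chain genes described here were counted in bulk RNA-seq of mouse pancreatic islets. They are the subunits of complexes I to V, with the Ndufaf assembly factors of complex I and with Atp5s, a factor grouped with complex V by its name. They were picked by symbol, with no measured value in the rule: Nduf genes of the series a, b, c, s and v, the genes Sdha to Sdhd, all Uqcr, Cox4 to Cox8 and Atp5 symbols, and the protein-coding genes of the mitochondrial genome, leaving out pseudogene names. The choice of this set was made with earlier results of these data known. The rule found 111 members among 56941 gene identifiers, 98 of them nuclear and 13 mitochondrially encoded. A filter on low counts kept 101, namely 88 nuclear and all 13 mitochondrially encoded members, of the 18548 genes tested. Of the 10 that did not pass, Cox7a1 had 46 summed counts over the 9 libraries, Cox6b2 21, Ndufa11b 10, Cox6c2 4, Cox7b2 3, Cox8b 3, Ndufb4c 2, and Ndufs6b and Cox8c 1 each. The last was a second identifier of Atp5o with 0 counts, while the other Atp5o identifier was tested. Cyc1, a complex III subunit with a name outside the rule, is given with the electron carriers.

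The islets came from wild-type male C57BL/6J mice that were 15 weeks old when the diets began and ate them for 9 months. Of the 9 libraries, 3 came from mice on the control diet with 10% fat (LFD), 2 from mice on the diet with 60% fat (HFD), and 4 from mice on the ketogenic diet with 89.9% fat (KD). The study asked how the ketogenic diet affects islet gene expression. Snap-frozen islets gave polyadenylated RNA for stranded libraries, and the labels do not say whether a library came from 1 mouse or from several, so p-values measure only the spread between these libraries. Library totals ran from 15513502 to 26588390 counts.

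Complexes I and II take electrons from NADH and succinate, complexes III and IV pass them on to oxygen, and complex V makes ATP from the proton gradient that complexes I, III and IV build. The mitochondrial genome encodes core subunits of complexes I, III, IV and V but none of complex II, so the remaining subunits are made from nuclear genes and imported. In beta cells, ATP from this chain closes potassium channels and triggers insulin release, so their secretion depends on it.

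Islet markers were present in every library: the 10 beta cell genes on the marker list held 5.72% to 9.49% of counts in LFD, 11.6% and 12.9% in HFD and 1.68% to 12.8% in KD. Digestive enzyme genes of acinar cells, the exocrine cells around islets, held 16.3% to 38.9% in LFD, 11.96% and 19.98% in HFD, and 65.2%, 48.1%, 60.8% and 21.7% in KD replicates 1 to 4. Of 36 listed acinar genes 35 were found, and none of these was at 0. The 12 lymphocyte markers, none at 0 in every library, held 0.0108% to 0.162% in LFD, 0.00918% and 0.0129% in HFD and 0.000545% to 0.00216% in KD. In such bulk samples, fewer cells of a type and less RNA per cell cannot be told apart.

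Mitochondrially encoded messages took a smaller part of the KD than of the LFD libraries, with a mean log2 difference in share of -1.30 against -0.34 for the nuclear members. The 13 mitochondrially encoded members held 1.31%, 2.04% and 1.67% of counts in LFD replicates 1 to 3, 2.31% and 1.37% in HFD, and 0.333%, 0.724%, 0.666% and 1.24% in KD. Every KD library lay below every LFD library, and the HFD libraries lay inside or above the LFD range. The 98 nuclear members held 0.298%, 0.348% and 0.320% in LFD, 0.383% and 0.461% in HFD, and 0.190%, 0.267%, 0.205% and 0.403% in KD. Here KD replicate 4 lay above all LFD libraries and the other 3 KD libraries lay below them. Counting error is small beside these differences: for KD replicate 1, with the lowest share, the 95% Wilson interval of the mitochondrial share was 0.330% to 0.335%, and it covers counting error only.

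Dividing the mitochondrial by the nuclear sum within a library removes the choice of a library scale. The ratio was 4.42, 5.85 and 5.23 in LFD (5.17 ± 0.720, SD, n = 3), 6.03 and 2.96 in HFD, and 1.75, 2.71, 3.26 and 3.09 in KD (2.7001 ± 0.675, n = 4). All 4 KD ratios lay below all 3 LFD ratios, and HFD replicate 2 lay among the KD libraries while HFD replicate 1 was the highest of all 9. On the log2 scale KD averaged 0.97 below LFD, against SDs of 0.41 in KD and 0.20 in LFD. The value ran from -1.08 to -0.77 when single libraries were left out. No p is given for these sums, because the gene set was chosen with earlier results of these data known.

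**Figure D1:**
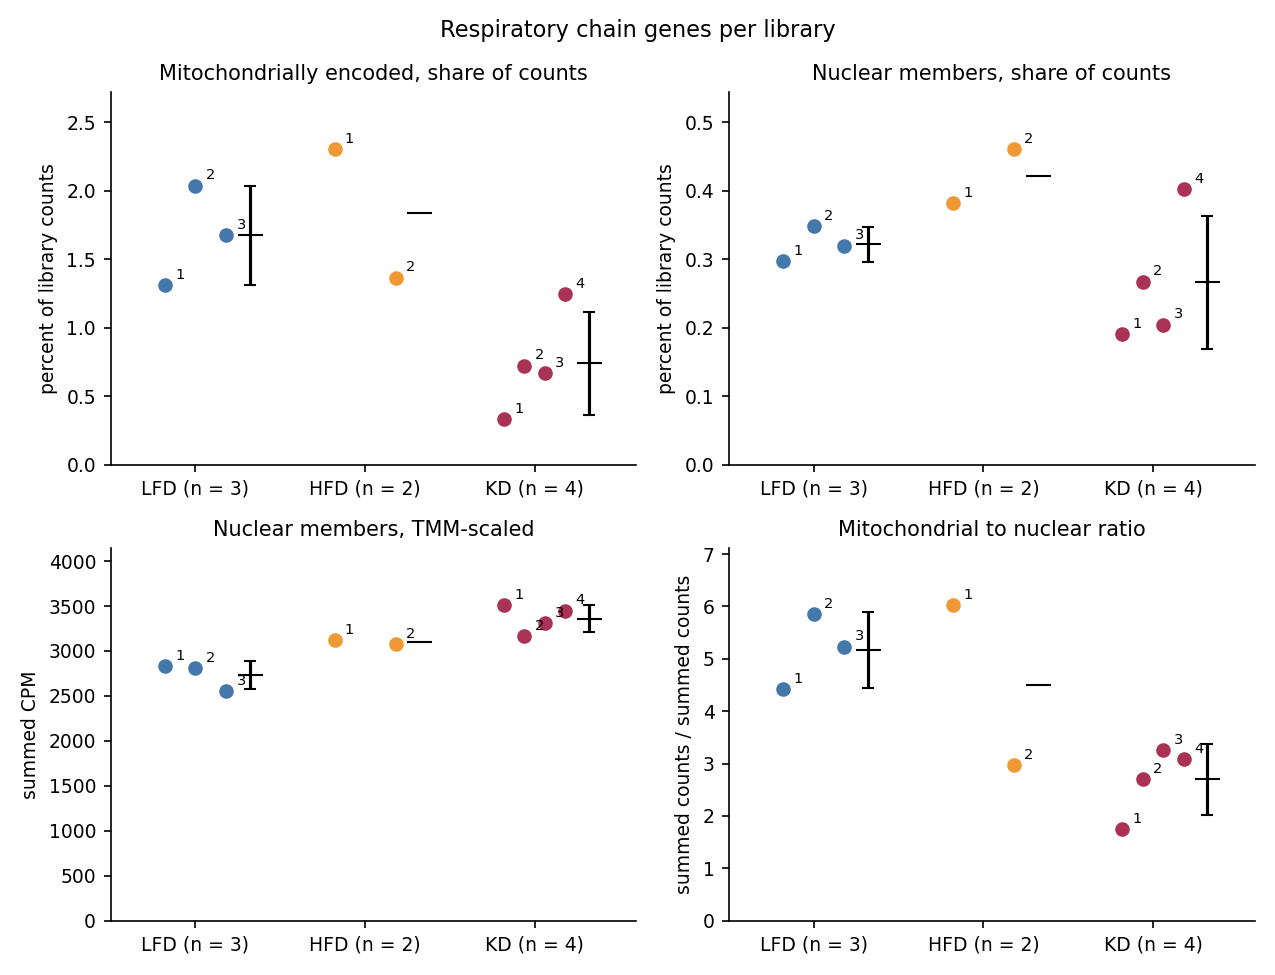
Summed respiratory chain genes in each of the 9 libraries, by diet, with numbers giving the replicate, a horizontal mark at the mean and, for LFD and KD, bars of 1 SD. The KD libraries lie below LFD in mitochondrial share and in the mitochondrial to nuclear ratio, while the nuclear sum is higher in KD on the TMM scale (CPM) and lower in 3 of 4 KD libraries as a share of all counts.

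The nuclear sum took its direction from the denominator. As a share of all counts, nuclear members averaged 0.34 lower in KD than in LFD on the log2 scale, but 0.22 higher as a share of the counts outside acinar and hormone genes, and 0.30 higher on the library sizes scaled by TMM (trimmed mean of M-values, which sets the bulk of genes level). On that scale, in CPM, the usual counts brought to a common library size, the nuclear sum was 2830, 2811 and 2553 in LFD, 3122 and 3073 in HFD, and 3513, 3168, 3308 and 3447 in KD. All KD libraries then lay above all LFD and HFD libraries. The mitochondrial sum stayed lower in KD under each denominator, by 1.30 on the log2 scale as a share of all counts and by 0.67 on the TMM scale.

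The acinar share differed between the diets alongside these values. KD replicates 1, 2 and 3 had higher acinar shares than any LFD library and ratios of 1.75, 2.71 and 3.26. KD replicate 4, at an acinar share inside the LFD range (21.7%), had a ratio of 3.09, below all LFD libraries, and HFD replicate 2, at the lowest acinar share of all (11.96%), had 2.96. With an acinar score as a covariate, the median log2 fold change of the mitochondrially encoded members between KD and LFD was -0.73, against -0.64 without it. The part of the acinar share in the ratio was not tested.

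**Figure D2:**
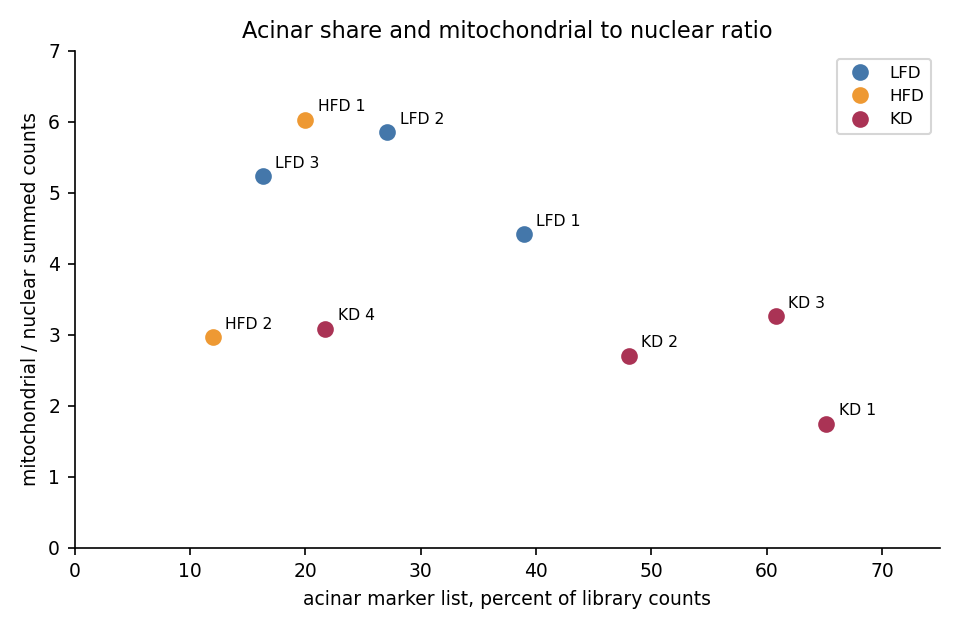
Ratio of summed mitochondrial to summed nuclear counts (vertical axis) against the percent of library counts in the acinar marker list (horizontal axis), 1 point per library. KD replicate 4 (21.7% acinar, ratio 3.09) and HFD replicate 2 (11.96%, 2.96) have low ratios at low acinar shares, and the remaining KD libraries have low ratios at high acinar shares.

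The mitochondrially encoded members spanned a wide range of levels. Per base of gene, mt-Co1, the catalytic subunit of complex IV, was highest with 754 summed counts per base over the 9 libraries. It was followed by mt-Cytb of complex III with 243, and by the complex I genes mt-Nd1 with 174, mt-Nd5 with 136, mt-Nd2 with 98.9 and mt-Nd4 with 76.5. mt-Nd6, the only one of the 13 encoded on the opposite strand, had 18.02. The remaining 6 lay between 0.129 for mt-Nd3 and 1.58 for mt-Atp6, a gap of more than an order of magnitude to mt-Nd6.

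Of those 6 low genes, 5 have an annotated nuclear copy of at least 99% identity over at least 90% of their length: mt-Atp6 (copy Gm10925), mt-Co2 (Gm28661), mt-Co3 (Gm28437), mt-Nd3 (Gm28438) and mt-Nd4l (Gm10222). Such copies are stretches of the mitochondrial genome inserted into nuclear chromosomes. Their summed counts ran from 45 to 1193, against 9354 to 1164860 for the 7 genes other than mt-Atp8, which had 301 and no annotated copy among the transcripts searched. The mt-Nd4 gene has an identical copy over 63.6% of its length and still had 105404 counts. No source used here says how reads that match several places were counted, so the levels of mt-Atp6, mt-Co2, mt-Co3, mt-Nd3 and mt-Nd4l are uncertain.

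The start of a gene with an identical copy is shown beside that of 2 genes whose copies differ, to show the letters that tell a gene from its copy. Sequences are from the GENCODE M21 transcripts, 5′ to 3′, 60 bases from base 1 of each transcript (base 2 for mt-Cytb and its copy). Capitals mark the bases that differ within a pair.
mt-Co3: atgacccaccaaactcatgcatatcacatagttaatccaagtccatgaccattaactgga
Gm28437: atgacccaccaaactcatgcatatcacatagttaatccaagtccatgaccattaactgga
mt-Co1: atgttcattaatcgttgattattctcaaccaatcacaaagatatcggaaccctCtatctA
Gm13340: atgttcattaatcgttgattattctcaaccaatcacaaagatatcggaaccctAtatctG
mt-Cytb: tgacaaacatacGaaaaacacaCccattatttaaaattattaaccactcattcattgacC
Gm11410: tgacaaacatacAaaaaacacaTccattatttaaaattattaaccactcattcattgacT
The mt-Co3 pair had 0 differences in the 60 bases, the mt-Co1 pair 2 and the mt-Cytb pair 3.

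**Figure D3:**
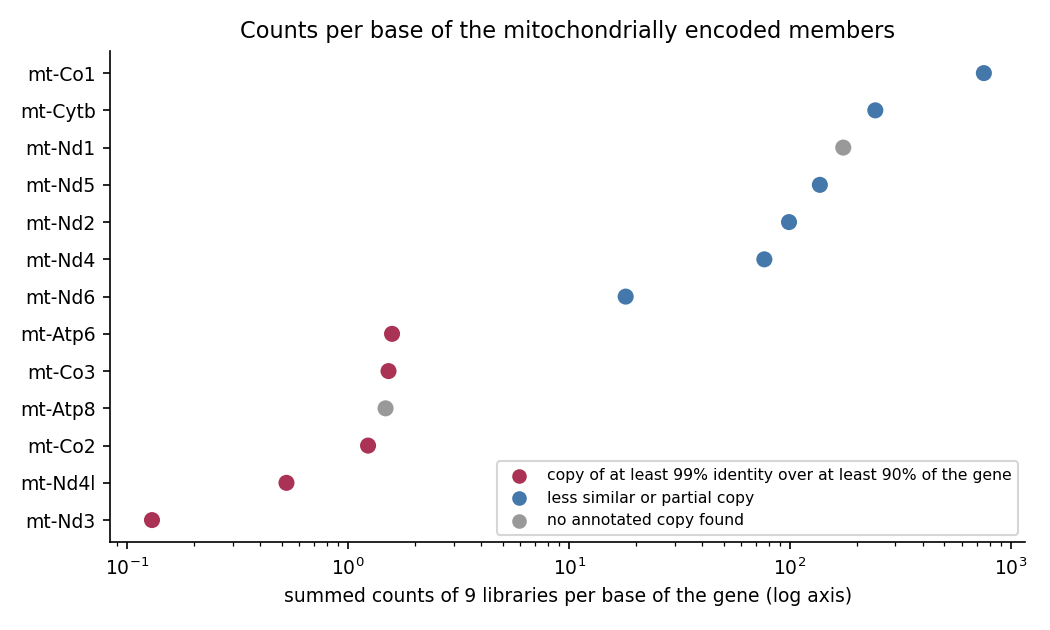
Summed counts of the 9 libraries per base of each mitochondrially encoded gene (log axis), coloured by the most similar annotated nuclear copy. The 5 genes with a near-identical copy over at least 90% of their length lie between 0.129 and 1.58 counts per base, and mt-Co1 is highest at 754.

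Between KD and LFD, 12 of the 13 mitochondrially encoded members had a log2 fold change below 0, where 51.9% of all genes did. Their median was -0.64, against -0.02 over all genes tested. None passed an adjusted p of 0.05 in edgeR's quasi-likelihood test with Benjamini-Hochberg adjustment (smallest 0.118, for mt-Co3). At an unadjusted p below 0.05 there were 5, all lower, where 11.9% of all genes were lower. With edgeR 4.12% of all genes were called, 3.14% as lower. limma-voom called 1 of the 13 and DESeq2 0, where they called 10.1% and 9.56% of all genes. The KD and LFD libraries did not overlap for 8 members, mt-Co1, mt-Co2, mt-Co3, mt-Cytb, mt-Nd1, mt-Nd2, mt-Nd4 and mt-Nd5, all lower in KD, where 10.1% of all genes were lower without overlap. The 13 genes are read from the same few long precursor RNAs and are not independent of each other.

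mt-Co1 stood at 7129, 9254 and 7552 CPM in LFD, 9642 and 5579 in HFD, and 3648, 4900, 6012 and 5859 in KD. The highest KD library was thus below the lowest LFD library, and the HFD libraries differed from each other more than the LFD libraries did. Against LFD, the KD value was -0.64 in log2 (SE 0.33, edgeR adjusted p = 0.277). mt-Cytb, the only mitochondrially encoded subunit of complex III, was at 1734, 2418 and 1776 CPM in LFD, 2552 and 1065 in HFD, and 785, 1083, 1383 and 1421 in KD, a log2 fold change of -0.76 (SE 0.32, edgeR adjusted p = 0.191). The complex I genes mt-Nd1, mt-Nd2, mt-Nd4 and mt-Nd5 had values of -0.61, -0.59, -0.75 and -0.53.

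Of the 5 genes with near-identical copies, mt-Atp6 had -0.82, mt-Co2 -0.86 and mt-Co3 -0.99, each further below 0 than mt-Cytb. The others of these 5 were mt-Nd3 at -0.61 (SE 0.81) and mt-Nd4l at -0.36 (SE 0.60), the last with 156 counts over all libraries. mt-Atp8, which overlaps mt-Atp6, stood at -0.85. The mitochondrial 16S ribosomal RNA gene mt-Rnr2, which is not a member, had a log2 fold change of -1.28 (SE 0.36, edgeR adjusted p = 0.0674).

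mt-Nd6 was the exception. It was at 51.1, 57.4 and 34.0 CPM in LFD, 111 and 15.8 in HFD, and 32.5, 56.3, 82.0 and 58.5 in KD. The groups overlapped, with 0.27 as the log2 difference between KD and LFD (SE 0.57, edgeR adjusted p = 0.819). As a part of the mitochondrially encoded counts, mt-Nd6 made up 0.254% to 0.409% in LFD, 0.592% and 0.173% in HFD, and 0.529% to 0.761% in KD, so KD and LFD did not overlap. mt-Co1 held 56.2% to 57.0% of those counts in LFD and 55.05% to 59.4% in KD, and mt-Cytb 13.3% to 14.7% and 12.6% to 13.4%, so the make-up of the abundant part of the set was similar in both diets.

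Nuclear members leaned the other way on the TMM scale. Of the 88 tested, 77 had a log2 fold change above 0 in KD against LFD, where 48.1% of all genes did, and the median was 0.26 against -0.02 over all genes. edgeR's quasi-likelihood test called 4 as higher, Ndufb9, Uqcrc1, Cox6a1 and Atp5g3, and 0 as lower, where 0.981% of all genes were called higher and 3.14% lower. At an unadjusted p below 0.05 there were 27 higher and 0 lower, where 10.8% of all genes were higher and 11.9% lower. The diets did not overlap for 26 members that were higher in KD and 1 that was lower, where 9.69% and 10.1% of all genes were.

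These 4 calls rest on the full set of libraries and on the tool. Leaving out LFD replicate 1 or 3, or KD replicate 1, 2 or 3, ended all 4 calls, where 0.822% to 5.08% of all genes were called. Leaving out LFD replicate 2 left 1 call, where 1.24% of all genes were called. Without HFD replicate 1 or 2 there was also 1, where 2.71% and 2.73% of all genes were called. Without KD replicate 4 there were 6 calls, 5 higher and the mitochondrial mt-Co3 lower, where 7.4% of all genes were called. DESeq2 called 13 of the 101 members, all nuclear and higher, where it called 9.56% of all genes. A model with only the 2 diets called 0 members and 3.12% of all genes, and a filter at 5 CPM 0 members and 3.31%. With an acinar score as a covariate there were 7 calls and a nuclear median of 0.22, where 8.21% of all genes were called. With a lymphocyte score, added after seeing the data, 0% of all genes and so 0 members were called, and the nuclear median was 0.55.

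**Figure D4:**
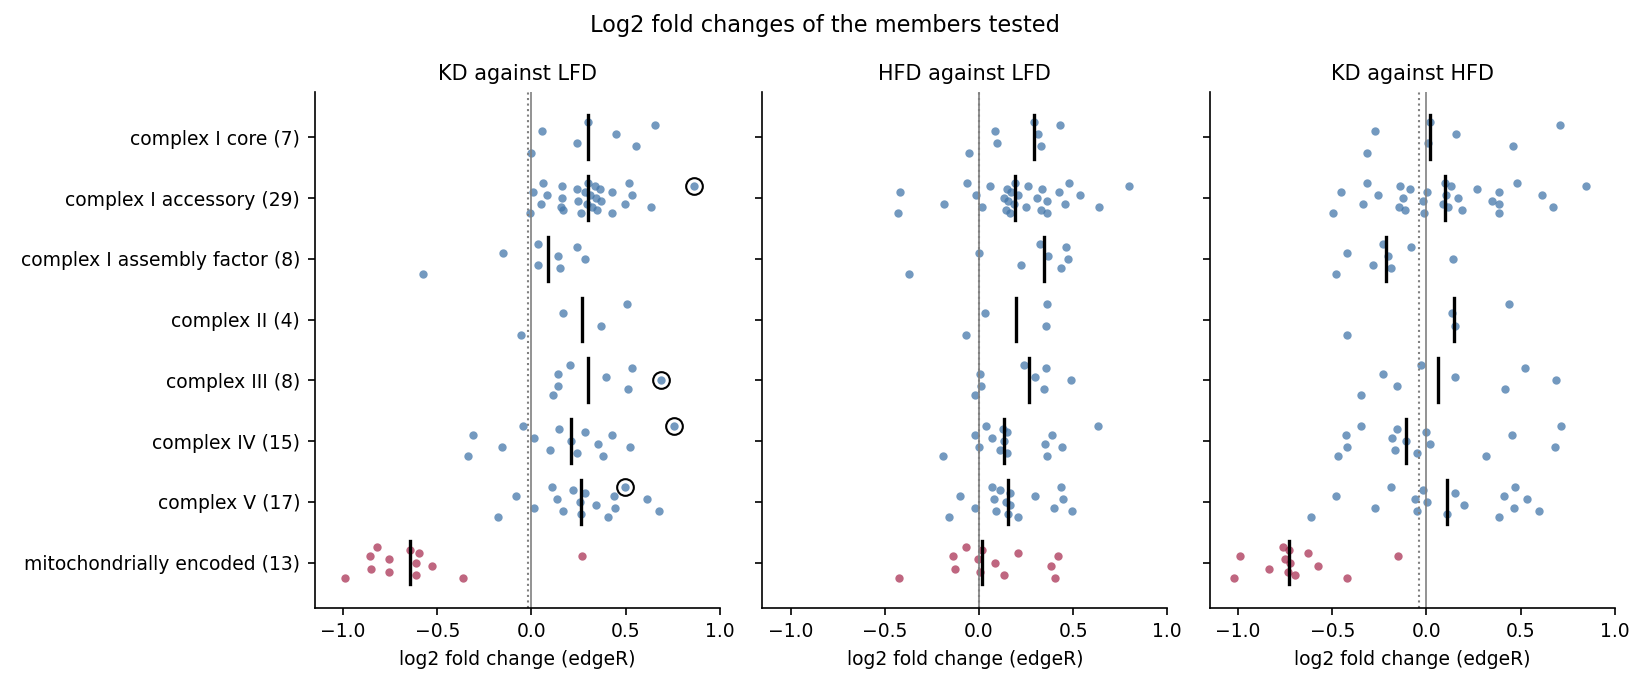
Log2 fold changes of the 101 tested members in the 3 comparisons, grouped by complex, with a short vertical mark at each group's median, a dotted line at the median of all genes tested and rings around the 4 members called by edgeR. In KD against LFD the nuclear groups centre between 0.09 and 0.30 on the TMM scale and the mitochondrially encoded group at -0.64.

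Complex I accessory subunits surround the catalytic core. Of 29 tested, 28 lay above 0 in KD against LFD, with a median log2 fold change of 0.30. Ndufb9, in the membrane arm, was at 29.1, 27.2 and 21.01 CPM in LFD, 31.7 and 27.1 in HFD, and 55.1, 44.7, 54.4 and 33.3 in KD. All KD libraries lay above all LFD and HFD libraries, KD replicate 4 by the least. Against LFD it was 0.86 higher in log2 (SE 0.19, edgeR adjusted p = 0.0311), and it stayed above 0 in all 19 alternative analyses and past the threshold in 10 of them.

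The 7 core subunits of complex I, which between them hold its flavin and iron-sulfur clusters, had a median of 0.30 with 0 called. The 8 Ndufaf assembly factors, which are needed to build complex I but are not part of it, had a median of 0.09, and Ndufaf4, their most abundant, a value of 0.24.

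Complex II had 4 members with a median of 0.27 and 0 called. Sdha, its flavoprotein, differed by 0.17 (SE 0.12), and Sdhd, a membrane anchor, by -0.06 (SE 0.13). All 8 complex III members lay above 0, with a median of 0.30. Uqcrc1, a core protein, was at 46.3, 45.9 and 34.4 CPM in LFD, 40.1 and 44.5 in HFD, and 83.4, 61.5, 71.3 and 56.3 in KD. KD lay above the other diets without overlap, at a log2 fold change of 0.69 against LFD (SE 0.16, edgeR adjusted p = 0.0406). Uqcrc2, the other core protein and the most abundant member, had 0.11 (SE 0.12).

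Complex IV members had the lowest median of the complexes, 0.21, with 11 of 15 above 0. Cox6a1, a subunit found in most tissues, was at 11.5, 13.8 and 7.88 CPM in LFD, 11.4 and 11.9 in HFD, and 19.8, 18.8, 18.8 and 17.5 in KD. The KD libraries sat close together above all others, at a log2 fold change of 0.75 against LFD (SE 0.19, edgeR adjusted p = 0.0470). Cox4i1, the widely expressed form of subunit 4, was at 71.9, 75.4 and 60.8 CPM in LFD and 113, 85.05, 87.2 and 88.3 in KD, also without overlap (0.43, SE 0.14, edgeR adjusted p = 0.104).

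Complex V had a median of 0.27, with 15 of 17 above 0, where the 17 include Atp5s (-0.18), grouped here by its name. Atp5g3, 1 of 3 genes that encode the same subunit of the rotating c ring, was at 43.3, 43.9 and 37.7 CPM in LFD, 42.8 and 45.8 in HFD, and 63.0, 53.8, 58.3 and 60.1 in KD. All 4 KD libraries lay above the rest, at a log2 fold change of 0.50 (SE 0.12, edgeR adjusted p = 0.0372). Atp5b, the catalytic beta subunit, had 312, 329 and 269 CPM in LFD and 432, 394, 412 and 412 in KD, without overlap and short of the threshold (0.45, SE 0.14, edgeR adjusted p = 0.0899).

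**Figure D5:**
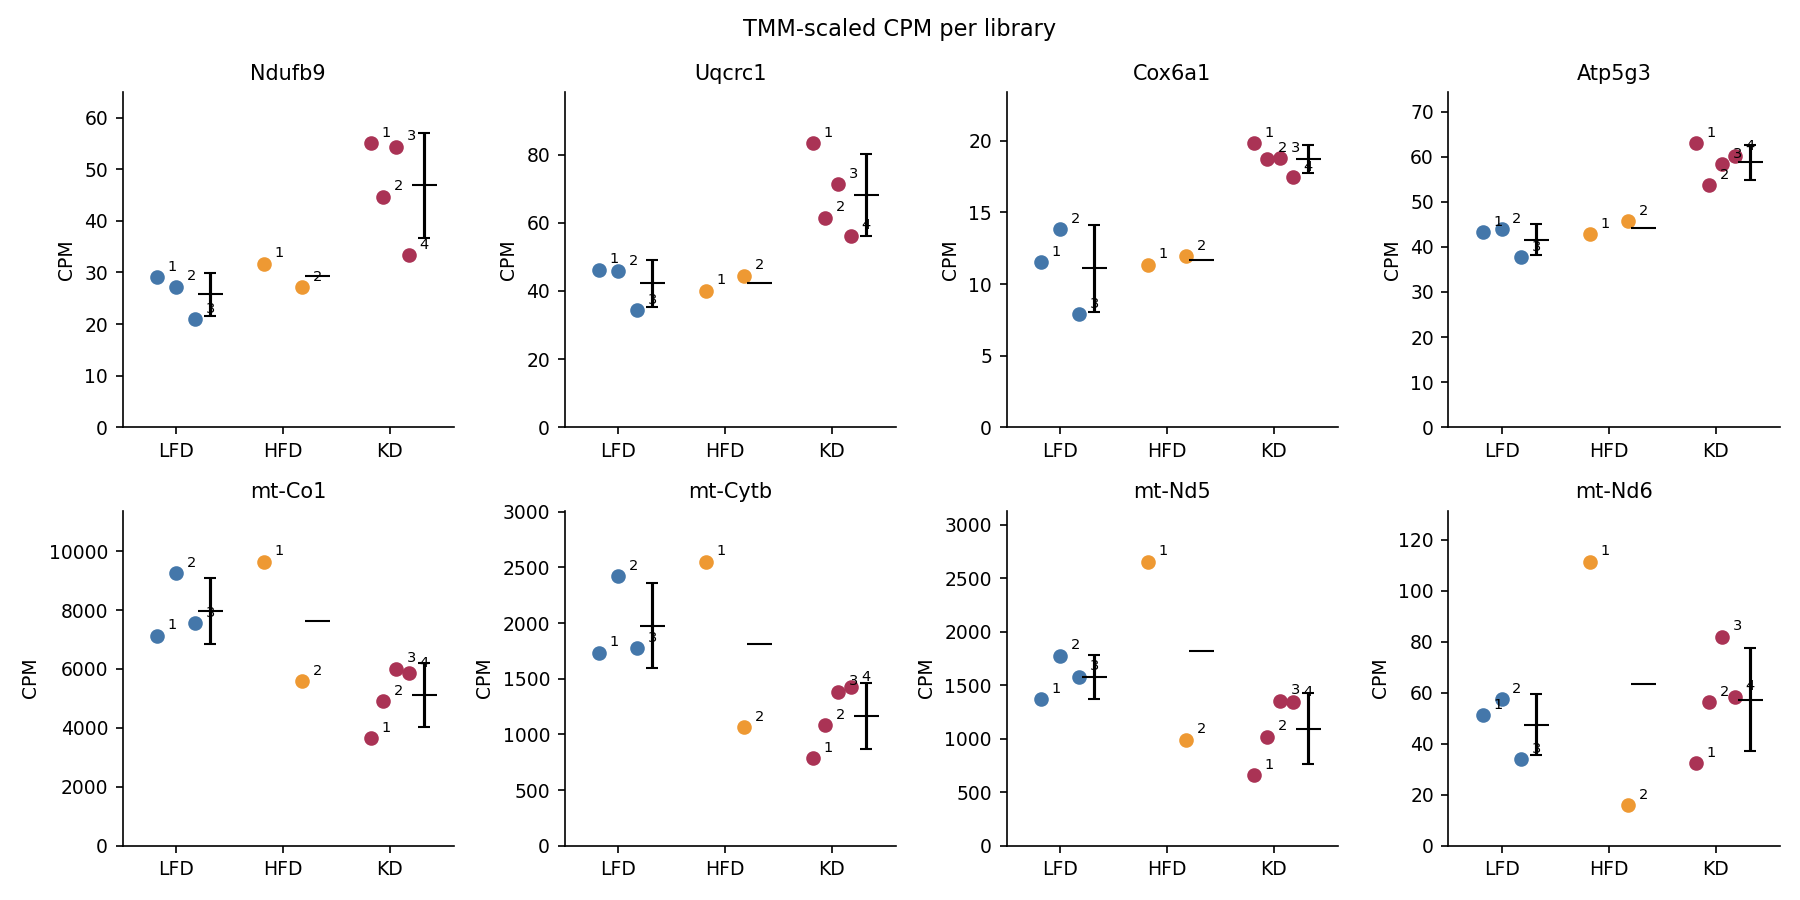
TMM-scaled CPM in each library for the 4 nuclear members called in KD against LFD and for 4 mitochondrially encoded members, with numbers giving the replicate, a mark at the mean and, for LFD and KD, bars of 1 SD. KD lies above both other diets for the nuclear 4, below LFD for mt-Co1, mt-Cytb and mt-Nd5, and overlaps LFD for mt-Nd6.

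The promoters of 3 called members are shown, Ndufb9 having no entry in the RefSeq table, because the nuclear factors NRF1, GABP and YY1 are known to bind many respiratory chain promoters. Each runs from 250 bases before to 50 after the gene's start in RefSeq (GRCm38.p6), 5′ to 3′ on the gene's strand. Capitals mark matches on either strand to the NRF1 motif (GCGCA and GCGC with 1 base of any kind between them) or the GABP motif CCGGAAG.
Uqcrc1, chr9:108936398-108936697, plus strand: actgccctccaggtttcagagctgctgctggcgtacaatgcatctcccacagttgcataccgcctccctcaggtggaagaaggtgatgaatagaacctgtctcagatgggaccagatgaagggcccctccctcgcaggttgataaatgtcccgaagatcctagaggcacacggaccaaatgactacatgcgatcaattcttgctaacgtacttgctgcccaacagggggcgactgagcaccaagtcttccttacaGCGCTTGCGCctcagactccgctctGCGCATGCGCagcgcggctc
Cox6a1, chr5:115348909-115349208, minus strand: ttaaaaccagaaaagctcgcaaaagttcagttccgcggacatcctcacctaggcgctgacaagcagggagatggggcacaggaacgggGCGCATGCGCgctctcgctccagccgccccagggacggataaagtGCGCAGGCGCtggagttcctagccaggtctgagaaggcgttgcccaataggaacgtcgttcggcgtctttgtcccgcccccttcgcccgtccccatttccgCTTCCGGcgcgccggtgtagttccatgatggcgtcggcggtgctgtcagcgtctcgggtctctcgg
Atp5g3, chr2:73911277-73911576, minus strand: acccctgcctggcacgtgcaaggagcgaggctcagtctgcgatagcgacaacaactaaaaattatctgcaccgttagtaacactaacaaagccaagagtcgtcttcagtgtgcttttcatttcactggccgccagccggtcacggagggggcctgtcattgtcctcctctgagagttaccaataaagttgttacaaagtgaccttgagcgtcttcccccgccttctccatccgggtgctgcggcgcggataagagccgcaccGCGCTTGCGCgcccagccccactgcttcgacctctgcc
The Uqcrc1 promoter held 2 NRF1 motifs, that of Cox6a1 2 NRF1 motifs and 1 GABP motif, and that of Atp5g3 1 NRF1 motif. Of the 88 tested nuclear members, 72 had a promoter in the RefSeq table, and 19 of these (26.4%) held the NRF1 motif in at least 1 promoter, against 5.19% of the 27025 genes in the table. The GABP motif stood in 18 (25%, against 9.93%) and the YY1 motif AAGATGGC in 11 (15.3%, against 3.19%), with both strands searched and overlaps between motifs allowed. All 72 members had passed the count filter, while the 27025 genes were not filtered by counts, so the shares do not compare like sets. A match is a description of the letters and not a binding site.

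Several subunits have tissue-bound isoforms or other related genes. Between KD and LFD, 6 pairs of such genes were compared within libraries with an exact two-sided permutation of the 7 libraries (35 splits, smallest possible p 0.0286). None passed after adjustment over the 6 pairs, which at this smallest p would have needed at least 4 pairs to reach it. Some ratios divide by Cox6a1 or Atp5g3, which edgeR called higher in KD than in LFD in these same libraries. The p-values of those ratios are not independent of these calls. Cox6a2, known as the heart and muscle form, was read at 0.883, 0.712 and 1.30 counts per count of Cox6a1 in LFD, 0.991 and 0.747 in HFD, and 0.145, 0.584, 0.427 and 0.795 in KD. KD replicate 4 lay inside the LFD range and the other 3 below it, a log2 difference of -1.18 (exact permutation p = 0.114, adjusted p = 0.229). Beside this, the beta cell marker share was 1.68%, 5.08%, 2.89% and 12.8% in KD replicates 1 to 4, which is the same order of libraries as for the ratio, and its part in the ratio was not tested. The order did not hold in LFD, where the share was 5.72%, 7.42% and 9.49%, and both HFD libraries had a higher share and a lower ratio than LFD replicate 3.

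The ratio of Atp5g2 to Atp5g3, which encode the same mature protein, was 0.890, 0.901 and 1.03 in LFD and 0.762, 0.773, 0.687 and 0.756 in KD, without overlap (log2 difference -0.33, exact permutation p = 0.0286, the smallest possible, adjusted p = 0.171). Taken alone, Atp5g2 had a log2 fold change of 0.17 (SE 0.11) in KD against LFD, while Atp5g3 had 0.50. Ndufa4l2 to Ndufa4 differed by -0.60 (exact permutation p = 0.0571, adjusted p = 0.171), Cox4i2 to Cox4i1 by -1.09 (p = 0.2, adjusted 0.3, exact permutation), Atp5g1 to Atp5g3 by 0.21 (p = 0.286, adjusted 0.343, exact permutation) and Cox7a2l to Cox7a2 by -0.04 (p = 0.8, adjusted 0.8, exact permutation). Cox7a1, Cox8b and Cox6b2, the muscle or testis forms, were each below 0.5 CPM in every library, while Cox7a2 stood at 30.4 to 48.3, Cox8a at 42.5 to 77.9 and Cox6b1 at 42.7 to 56.2.

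HFD against LFD shares its control libraries with KD against LFD, so the 2 are given side by side. The edgeR test called 0 members at an adjusted p below 0.05, as it called 0% of all genes, and DESeq2 and limma-voom called 0 members too, where they called 1.44% and 0.0593% of all genes. At an unadjusted p below 0.05, 17 members were higher and 0 lower, where 3.55% of all genes were higher and 6.44% lower. The median of the nuclear members was 0.18, with 73 of 88 above 0, where 49.8% of all genes were, and the median over all genes was -0.0017. In 33 nuclear members both HFD libraries lay above all LFD libraries, and in 3 both lay below, where 13.4% and 14.1% of all genes did.

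The members highest in HFD were not those called in KD. Ndufc2, an accessory subunit of complex I, was at 23.9, 22.05 and 18.9 CPM in LFD, 40.7 and 34.4 in HFD, and 17.4, 24.5, 24.1 and 40.2 in KD, a log2 fold change of 0.80 in HFD (SE 0.28, edgeR adjusted p = 0.416) and 0.30 in KD. Cox7a2 was at 31.8, 34.4 and 34.4 CPM in LFD, 48.3 and 42.8 in HFD, and 33.8, 30.4, 34.6 and 36.7 in KD, with 0.44 in HFD (SE 0.14, edgeR adjusted p = 0.363) and 0.01 in KD. This was the smallest adjusted p of the members, while the highest log2 fold changes were those of Ndufc2, Ndufa1 and Ndufa4. The 4 members called in KD stood at 0.19 for Ndufb9, 0.00 for Uqcrc1, 0.07 for Cox6a1 and 0.09 for Atp5g3 in HFD. Ndufa4 had 0.63 and Ndufa1 0.64 in HFD, while Ndufb10, Ndufs6 and Cox5a had -0.42, -0.43 and -0.19.

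The mitochondrially encoded members had a median of 0.01 in HFD, with 5 of 13 below 0 where 50.2% of all genes were, which was the middle of 2 unlike libraries. Without HFD replicate 1 the median was -0.76, and without HFD replicate 2 it was 0.54. mt-Nd5, for example, was at 2654 and 992 CPM in the HFD replicates, beyond the LFD values of 1372, 1775 and 1579 on either side.

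In KD against HFD, which shares libraries with both comparisons above, edgeR called 0 members, as it called 0% of all genes. DESeq2 called 5 members, where it called 8.18% of all genes, and limma-voom called 0 members and 0% of all genes. At an unadjusted p below 0.05, 21 members were higher and 8 lower in KD, where 12.1% of all genes were higher and 10.6% lower. The nuclear median was 0.01, with 45 of 88 above 0, where 46.6% of all genes were. The libraries did not overlap for 23 nuclear members that were higher and 9 that were lower, where 15.7% and 18.2% of all genes were. Ndufb10 had the highest value, 0.85 (SE 0.27, edgeR adjusted p = 0.128), followed by Cox5a and Ndufs7 with 0.71 each, and Uqcrc1 had 0.69 (SE 0.19, edgeR adjusted p = 0.124). Among nuclear members Atp5s, Ndufc2 and Atp5l had the lowest, -0.61, -0.49 and -0.48.

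All 13 mitochondrially encoded members lay below 0 in KD against HFD, where 53.2% of all genes did, with a median of -0.73. The direction of this median rested on 1 library. Without HFD replicate 1 the median was 0.14, and without HFD replicate 2 it was -1.23. As a share of all counts, the log2 difference of the mitochondrial sum ran from -1.79 to -1.03 when single libraries were left out. For the ratio of the mitochondrial to the nuclear sum it ran from -1.20 to -0.17.

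Other genes of the pathway were taken from 5 lists written with earlier results of these data known. Among 11 genes of electron carriers and metabolite exchange, 2 were called higher in KD against LFD by edgeR, 0 lower, and 10 lay above 0, where 0.981% of all genes were called higher, 3.14% lower and 48.1% lay above 0. Etfb, which carries electrons from fatty acid oxidation to the chain, had 5.48 ± 0.995 CPM in LFD (SD, n = 3), 6.78 ± 0.604 in HFD (n = 2) and 11.1 ± 1.04 in KD (n = 4), a log2 fold change of 1.02 (SE 0.19, edgeR adjusted p = 0.0180). Slc25a3, the phosphate carrier that feeds complex V, had 0.48 (SE 0.12, edgeR adjusted p = 0.0452). Cyc1, the cytochrome c1 of complex III, had 0.74 (SE 0.21, edgeR adjusted p = 0.0674).

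Of 38 assembly factors tested, 1 was called, Coa3, which acts in the making of mt-Co1 protein, at 16.03 ± 2.38 CPM in LFD and 27.2 ± 1.44 in KD (0.76, SE 0.14, edgeR adjusted p = 0.0160). Of 78 mitochondrial ribosome genes, 67 lay above 0 and 1, Mrpl28, was called (0.64, SE 0.16, edgeR adjusted p = 0.0490). Their median was 0.30. The 1 call of 38 and the 1 of 78 stand beside 0.981% of all genes called higher.

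Genes for mitochondrial transcription and mRNA stability gave 0 calls of 28, with 5 higher and 1 lower at an unadjusted p below 0.05 and a median of -0.06, where 10.8% of all genes were higher and 11.9% lower. DESeq2 called 1 of the 28, higher, and limma-voom 1 higher and 1 lower, where they called 9.56% and 10.1% of all genes. Tfam, which packages mitochondrial DNA and starts its transcription, had 0.12 (SE 0.13), the polymerase Polrmt 0.40 (SE 0.18), and Lrpprc and Slirp, which together stabilise mitochondrial messages, 0.06 (SE 0.14) and -0.15 (SE 0.21). The 10 regulators of nuclear respiratory genes gave 0 calls as well, also with DESeq2 and limma-voom, 1 of them at an unadjusted p below 0.05, with Ppargc1a at 0.20 (SE 0.26), Nrf1 at -0.10 (SE 0.16), Gabpa at -0.11 (SE 0.12) and Esrra at 0.25 (SE 0.19). In the other comparisons edgeR called 0% of all genes, and so 0 of the 165 genes of the 5 lists. At an unadjusted p below 0.05, 8 were higher and 1 lower in HFD against LFD, where 3.55% and 6.44% of all genes were. In KD against HFD 29 were higher and 11 lower, where 12.1% and 10.6% of all genes were. DESeq2 called 0 of the 165 in HFD against LFD, where it called 1.44% of all genes. In KD against HFD it called 6, all higher, where it called 8.18% of all genes. With limma-voom 0 were called in both, beside 0.0593% and 0% of all genes.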

How the data were processed

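The authors deposited raw counts per Ensembl gene for 9 islet libraries, with polyadenylated RNA and stranded libraries per the labels' protocols. The submitters' processing notes name cutadapt 1.16, STAR 2.7.9a, featureCounts 1.6.3, DESeq2 1.40.2 and the builds GRCm39 and mm39, without roles. No source used here gives the handling of reads that match several genes, or a batch or date, and a batch cannot be told apart from diet. Symbols came from GENCODE M21, which matched 51948 of 56941 identifiers; no gene coordinates are printed from it.

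Members and gene lists were chosen with earlier results of these data known. Named members were all mitochondrially encoded ones, those called, the 3 highest and 3 lowest log2 fold changes per comparison at 5 CPM or more in the higher group, the most abundant of each complex, and tissue isoforms; Atp5g1 and Atp5g2 were added with the isoform pairs, and not every member this rule names is reported here.

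Counts were filtered with filterByExpr, scaled by TMM and fitted with edgeR 4.0.16 in R 4.3.3 (robust glmQLFit, glmQLFTest, all 9 libraries, 1 mean per diet, two-sided, Benjamini-Hochberg over 18548 genes, threshold 0.05). Kept genes held at least 99.86% of each library's counts. SEs are the absolute log2 fold change over the square root of F. Ratios of isoforms added 0.5 to each count for the log2 tests. Alternatives used DESeq2 1.42.0, limma 3.58.1 and other filters, scalings, covariates and library subsets. Nuclear copies were found with blastn 2.17.0 at 85% identity or more; processed pseudogenes of nuclear members were not examined. Scripts were tested on simulated data. No 2 libraries of a diet agreed within sampling noise.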

Additional observations from a re-analysis of the deposited data

Results flagged for a closer look

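Within the 4 KD libraries, 3 of the 50 member and set values examined had 1 library set far apart from the other 3 by Dixon's test (critical value 0.829), where chance flags about 1 in 20. For Sdhd, a membrane anchor of complex II, KD replicate 4 had 55.2 CPM against 44.2 in the next library (gap over range 0.967). For Cox4i1 of complex IV, KD replicate 1 had 113 CPM against 88.3 (0.886). KD replicates 1 and 4 had the highest and the lowest acinar share of the KD libraries (65.2% and 21.7%). The part of the acinar share in these values was not tested. For Uqcrc2 of complex III, KD replicate 2 was lowest at 79.0 CPM against 88.6 (0.848).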

How the results depend on the processing

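Depth limits mt-Nd3, mt-Nd4l and mt-Atp8 (45, 156 and 301 counts over all libraries), and 2 HFD libraries that differ in mitochondrial reads limit every HFD contrast of that set. The counts of member calls moved most. For KD against LFD (4 in the report) they were 13 with DESeq2 (9.56% of all genes called), 9 with limma-voom (10.1%), 7 without a filter (3.42%), 7 with the acinar covariate (8.21%), 11 with the replicate block (10.8%), 0 with the 5 CPM filter (3.31%), 0 with the lymphocyte covariate (0%), 0 with only the 2 diets (3.12%), and 0 to 6 when single libraries were left out (0.822% to 7.4%). For KD against HFD (0) they were 5 with DESeq2 (8.18% of all genes called), 11 with the replicate block (12.5%) and 0 to 7 when single libraries were left out, with 7 without KD replicate 4 (9.84%). The replicate numbers were not taken as a pairing, since the labels do not say what they mark. Deviations from the diet means correlated at 0.37, -0.07 and -0.07 for LFD and KD replicates 1 to 3. The values were 0.12 and 0.15 for LFD and HFD, and 0.07 and 0.11 for HFD and KD. These values cannot decide on a pairing, because centring within such small groups ties the deviations together, at -1 between the 2 HFD libraries.

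The nuclear median in KD against LFD was 0.17 with limma-voom and 0.55 with the lymphocyte covariate, which gave 0.38 in HFD against LFD and 0.0905 in KD against HFD. The mitochondrial median ran from -0.76 to 0.54 in HFD against LFD and from -1.23 to 0.14 in KD against HFD, and the log2 ratio from -0.79 to 0.23 and from -1.20 to -0.17, when single libraries were left out. The mitochondrial share in KD, in log2, differed by -0.67 from LFD on the TMM scale, and from HFD by -0.69 outside acinar and hormone genes and -0.57 on the TMM scale. The nuclear share in KD differed from LFD by 0.22 and 0.30 and from HFD by -0.0048 and 0.12 on those 2 denominators, the last a reversal. The cause was not tested.

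Signs of small differences of single genes turned as follows. In KD against LFD the acinar covariate gave Sdhd 0.0481, Cox6a2 0.0756 and Atp5l 0.0414. The lymphocyte covariate gave Sdha -0.0202, Cox7a2 -0.0324, Ndufa4l2 0.92, mt-Nd3 3.498 and mt-Nd4l 1.07 there, and Ndufb10 0.25 and Cox5a 0.33 in HFD against LFD, where the acinar covariate gave Cox5a 0.13. With limma-voom Uqcrc2 was -0.0165, Cox7a2 -0.0187 and Cox7a2l 0.0163, and Cox7a2 was -0.0423 with the 5 CPM filter and -0.0305 with the replicate block. In mt-Nd6, KD against HFD, limma-voom gave 0.43 and the replicate block 0.0473. Leaving out single libraries, KD against LFD ran from -0.45 to 0.13 for Cox6a2, -0.0283 to 0.0632 for Cox7a2, -0.15 to 0.11 for Cox7a2l and -0.69 to 0.0666 for mt-Nd4l, and Ndufa1 in HFD against LFD from -0.0880 to 1.13. KD against HFD ran from -1.21 to 1.38 for mt-Atp8, -1.12 to 0.14 for mt-Cytb, -1.22 to 0.15 for mt-Nd1, -1.29 to 0.22 for mt-Nd2, -1.29 to 0.10 for mt-Nd4, -1.39 to 0.40 for mt-Nd4l, -1.27 to 0.15 for mt-Nd5 and -0.95 to 1.86 for mt-Nd6.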
